A study of Mus musculus with 6 samples.

Results

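Genes of the cytotoxic effector programme and of natural killer (NK) cell receptors were examined in naive CD8 T cells that differed in the brightness of a Nur77-GFP reporter. The 10 genes were chosen by name, with earlier results of these data known. They included the granzymes Gzmb, Gzma and Gzmm, the pore protein gene Prf1, and the granule-associated genes Nkg7 and Ctsw. The others were the secreted factors Ccl5 and Ifng and the receptor genes Klrd1 and Klrk1. Of the 10, 8 were matched by symbol among the 11162 genes measured, and Gzma and Gzmm were not analysed here. Of the 8, 7 had a mean of at least 1 RPKM (reads per kilobase of gene, scaled to library size) over the 6 libraries and were tested. All 7 also had a mean above 1 RPKM in each population, and Klrk1 lay under that limit.

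The RNA came from spleen cells of Nur77-GFP mice, genotype Tg(Nr4a1-EGFP)GY139Gsat, in which sequences of the Nr4a1 locus drive green fluorescent protein. Both populations carried the OT-I T-cell receptor, which is transgenic and recognises an ovalbumin peptide, and both were sorted as CD8+, CD44lo, CD62Lhi and Qa2hi. Their labels differ only in the last gate, Nur77-GFPhi (GFP-hi) or Nur77-GFPlo (GFP-lo), and each was represented by 3 libraries. The age of the mice, and whether a library came from 1 mouse or a pool, were not given in the sources used here, so p-values measure only the spread between these libraries.

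Cytotoxic lymphocytes kill by releasing granules that hold perforin, which forms pores in the target membrane, and granzymes, serine proteases that enter the target and trigger its death. Naive CD8 T cells are not yet killers; they build up this machinery after activation, under T-box and Runx transcription factors. Receptors first described on NK cells are also carried by CD8 T cells, where they tune activation or killing. Nur77 is an immediate early product of T-cell receptor signalling, so the reporter reads recent signal strength.

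Gzmb and Prf1 were the members that passed the test, and their promoters are shown because the results turn on them. The sequences are from RefSeq (GRCm38.p6) and hold the bases before the gene start, 5′ to 3′ on the gene's strand. Capitals mark matches on either strand to any of 6 motifs. These were the Nur77 response element NBRE (AAAGGTCA), the T-box site AGGTGTGA and its core GGTGTG, Runx (TGTGGT), AP-1 (TGANTCA) and an E-box (CAGGTG). The T-box core lies within the longer T-box site. Gzmb occupies chr14:56258836-56262334, and its window is chr14:56262335-56262584 on the minus strand. Prf1 occupies chr10:61297751-61304684, and its window is chr10:61297586-61297750 on the plus strand.
Gzmb: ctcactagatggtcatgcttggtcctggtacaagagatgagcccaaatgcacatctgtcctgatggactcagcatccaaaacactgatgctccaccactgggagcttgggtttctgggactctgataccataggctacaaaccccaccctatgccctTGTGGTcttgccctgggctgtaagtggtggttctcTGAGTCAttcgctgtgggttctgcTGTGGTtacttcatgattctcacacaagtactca
Prf1: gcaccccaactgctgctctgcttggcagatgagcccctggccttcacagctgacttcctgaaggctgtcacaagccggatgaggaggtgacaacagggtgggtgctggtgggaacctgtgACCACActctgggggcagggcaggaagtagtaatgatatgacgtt
The Gzmb window held Runx matches at -93 and -34 and an AP-1 match at -58. Positions run from the start site in the promoter table to the first base of the match, and that site is base 56262334 for Gzmb and base 61297836 for Prf1. The Prf1 site lies inside the gene span given above, and the Runx match of Prf1 was at -130. An E-box match at -25 of Prf1 lay among the 85 bases that fall inside a longer gene model and are not printed. Over all 32851 promoters, 14.0% held the Runx motif within 250 bases, 6.75% the AP-1 motif and 17.2% the E-box. NBRE letters were in neither window and in 1.34% of all promoters. A match describes letters only.

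The 8 genes covered a wide range of levels in naive cells, as RPKM, which is scaled by gene length. Nkg7, whose product sits in granule membranes, was the most abundant at 293 ± 16.0 RPKM (SD, n = 6), rank 39 of 11162 genes. Ctsw, which encodes the cysteine protease cathepsin W, followed at 146 ± 5.18 RPKM, then Klrd1 at 67.1 ± 4.03 RPKM and Prf1 at 28.3 ± 6.41 RPKM. The ranges of these 4 neighbours in the order did not overlap over the 6 libraries.

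Ccl5, Ifng and Gzmb were lower, at 4.91 ± 1.39, 3.54 ± 1.52 and 2.55 ± 1.12 RPKM (SD, n = 6), and their ranges overlapped. Ccl5 exceeded Ifng in 5 of 6 libraries, and Ifng exceeded Gzmb in 4 of 6, so the order of these 3 was not resolved beyond their spread. Klrk1 was lowest, at 0.467 ± 0.204 RPKM, with no library reaching the lowest Gzmb value. Naive cells of both populations thus held much RNA of 2 granule-associated genes and of Prf1, but little of Gzmb. No other granzyme gene was analysed here.

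**Figure D1:**
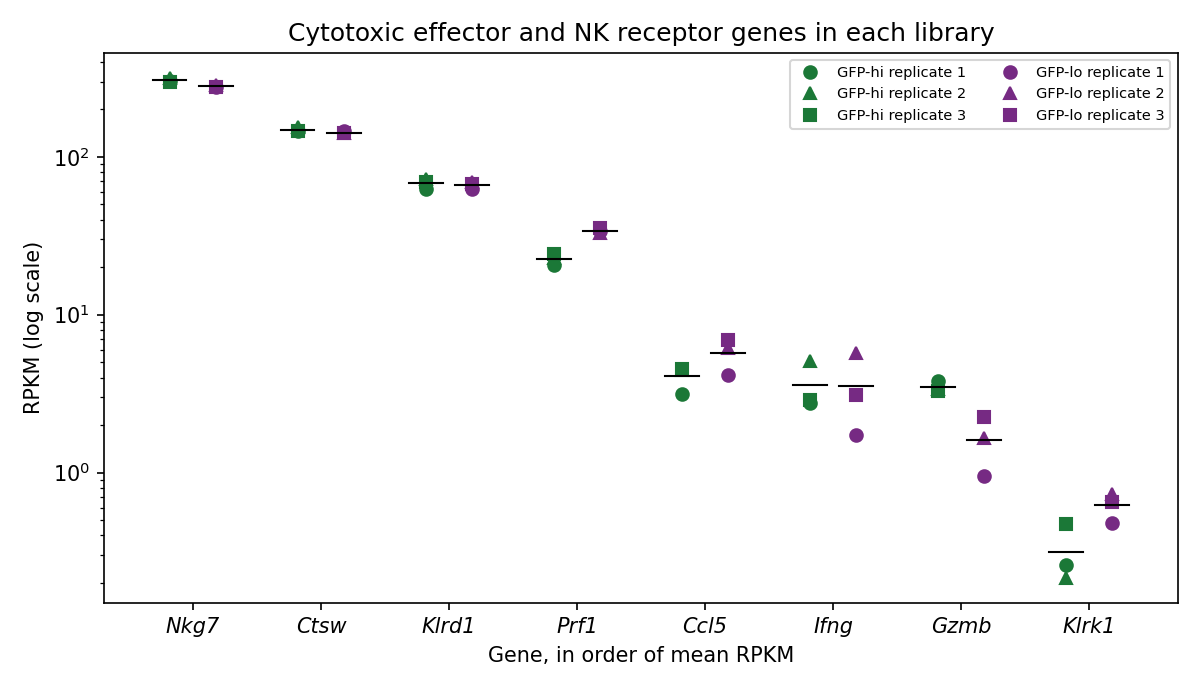
RPKM of the 8 measured genes on a log axis, in order of mean level, with GFP-hi libraries in green, GFP-lo libraries in purple, marker shapes for replicates and black lines for group means. Gzmb lay at 3.26 to 3.82 RPKM in GFP-hi and at 0.949 to 2.24 RPKM in GFP-lo, and Prf1 lay at 20.7 to 24.3 and at 33.0 to 35.2 RPKM.

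The depth behind these values was recovered from the spacing of low values, which is set by single reads, and ran from 26170000 to 35940000 reads per library. A transcript of 1 kilobase at 1 RPKM thus rested on 26.17 to 35.94 reads. CD8 T-cell markers were high, with the 6 measured genes of 7 (Cd8a, Cd8b1, Cd3e, Cd3d, Cd3g and Lck) summing to 1750 to 1860 RPKM in GFP-hi and 1720 to 1780 in GFP-lo. Of 8 NK-cell markers, Eomes alone was measured, and T cells express it too; its values were 5.49 to 8.14 and 5.86 to 7.68 RPKM. The other 7 were not analysed here. Replicate 2 of each population stood apart in the heat-shock genes Hspa1a (1100 and 1234 RPKM, at most 235 elsewhere) and Hspa1b (1904 and 2133 RPKM, at most 503). GFP-hi replicate 2 and GFP-lo replicate 1 had the lower median RPKM over 41 olfactory and vomeronasal receptor genes (0.037 and 0.038, at least 0.263 elsewhere).

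The populations were compared with limma on log2(RPKM + 1) over 9351 genes, with adjustment by Benjamini-Hochberg over all of them. Fold changes are GFP-hi over GFP-lo on that scale, which understates changes of low genes. Of all genes tested 369 (3.95%) had an adjusted p under 0.05, 230 higher (2.46%) and 139 lower (1.49%); scaled by a trimmed mean of M values they were 203 higher and 184 lower. The number was 153, 315 and 186 without GFP-hi replicate 1, 2 or 3, and 235, 133 and 157 without GFP-lo replicate 1, 2 or 3. Of the 7 members tested, 1 was higher and 1 lower, and 5 did not pass. The groups of libraries did not overlap for 3 of the 7, and for 26.9% of all genes tested. With so few members, neither count is a result about them as a list. Their median log2 fold change was 0.06, beside 0.02 for all genes tested.

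**Figure D2:**
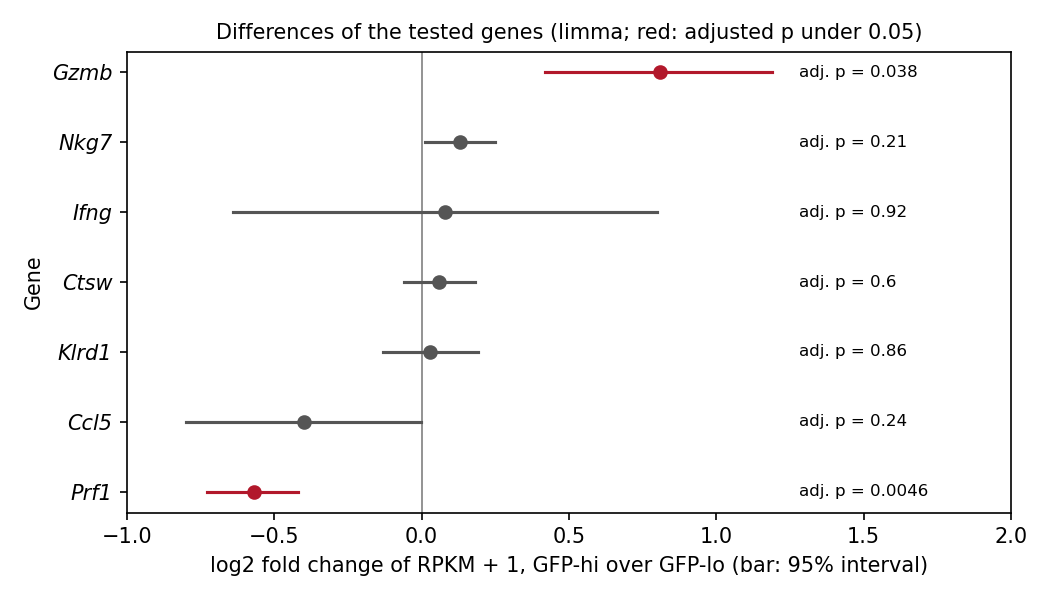
Log2 fold change of RPKM + 1, GFP-hi over GFP-lo, for the 7 tested genes, with bars for the 95% interval from limma and red for an adjusted p under 0.05. Gzmb lay at 0.81 and Prf1 at -0.57, and the other 5 lay between -0.40 and 0.13.

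Gzmb encodes granzyme B, a serine protease that cuts caspases and other substrates inside target cells. It had 3.82, 3.38 and 3.26 RPKM in the GFP-hi libraries and 0.949, 1.67 and 2.24 RPKM in the GFP-lo libraries. All 3 GFP-hi values lay above the highest GFP-lo value, and the GFP-lo libraries differed more among themselves. GFP-hi libraries averaged 3.49 ± 0.292 RPKM and GFP-lo libraries 1.62 ± 0.644 RPKM (SD, n = 3 each), a ratio of 2.16.

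The log2 fold change of Gzmb was 0.81 (standard error 0.166, 95% interval 0.42 to 1.19, limma adjusted p = 0.038). It ranked 39 by size among the 230 genes that were higher. With the transcript length of 1436 bases the values came within 0.03 of whole reads. They were 156, 165 and 138 reads in GFP-hi and 49, 68 and 84 reads in GFP-lo, so the gene was low but counted in every library. Reads can include PCR copies.

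The Gzmb call was close to the threshold. Its limma adjusted p was 0.12, 0.078 and 0.084 without GFP-hi replicate 1, 2 or 3, and 0.11 without GFP-lo replicate 2. It was 0.18 among the 4 libraries without replicate 2 of either population and 0.054 with a pseudocount of 0.1, where the log2 fold change was 1.14. The fold change was positive in each of the 17 alternatives that tested Gzmb, from 0.61 to 1.14.

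Markers of dividing cells differed between the populations in the same direction as Gzmb. All 6 genes of that list (Mki67, Top2a, Ccnb2, Rrm2, Pclaf and Birc5) were higher in GFP-hi; 5 of them averaged under 1 RPKM in GFP-lo and were tested through their GFP-hi values. Their summed level was 20.1, 16.0 and 21.6 RPKM in GFP-hi and 3.28, 3.93 and 4.03 RPKM in GFP-lo. Their part in the Gzmb result was not tested. In bulk RNA, fewer cells of a type and less RNA per cell cannot be told apart.

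Prf1 encodes perforin, without which granzymes do not reach the target's cytosol. It had 20.7, 22.9 and 24.3 RPKM in the GFP-hi libraries and 34.0, 33.0 and 35.2 RPKM in the GFP-lo libraries. Every GFP-hi value lay below every GFP-lo value, with a gap larger than the spread of either group. GFP-hi libraries averaged 22.6 ± 1.80 RPKM and GFP-lo libraries 34.1 ± 1.12 RPKM (SD, n = 3 each), a ratio of 0.664.

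Prf1 fell by 0.57 on the log2 scale (standard error 0.0674, 95% interval -0.73 to -0.42, limma adjusted p = 0.0046) and ranked 44 by size among the 139 genes that were lower. The call held in all 18 alternatives, with log2 fold changes from -0.62 to -0.51 and limma adjusted p values from 0.0019 to 0.047. The highest of these came from the 4 libraries without replicate 2 of either population.

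Gzmb rose and Prf1 fell, so their proportion was compared as well. The ratio of Prf1 to Gzmb RPKM was 5.42, 6.76 and 7.44 in the GFP-hi libraries and 35.8, 19.8 and 15.7 in the GFP-lo libraries. Perforin RNA exceeded granzyme B RNA, per length, in every library of both populations. The ratio was chosen after both genes' values had been seen and was not tested.

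Markers of CD44-high memory CD8 T cells were checked beside Prf1. The 5 measured genes of 6 summed to 113, 108 and 129 RPKM in GFP-hi and to 132, 134 and 150 RPKM in GFP-lo. Of these, the chemokine receptor gene Cxcr3 was lower, with 8.87, 9.12 and 12.6 against 23.5, 22.3 and 31.4 RPKM (log2 fold change -1.26, limma adjusted p = 0.0054). Cd44 (-0.06), Il2rb (0.26), Eomes (-0.01) and Ly6c2 (-0.82, limma adjusted p = 0.094) did not pass. Markers on other lists moved as well. The naive-cell list (5 measured of 5) summed to 1020 to 1240 RPKM in GFP-hi and 1130 to 1390 in GFP-lo, and Il7r, an interleukin 7 receptor chain, was lower (-0.80, limma adjusted p = 0.0022). Markers of CD4 T cells (2 measured of 4) summed to 17.2 to 26.2 and 36.2 to 47.8 RPKM. In it Cd40lg was lower (-1.13, limma adjusted p = 0.011) and Izumo1r, tested through its GFP-hi values, higher (1.17, limma adjusted p = 0.00087). The part of these lists in the Prf1 result was not tested.

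Nkg7 had 304, 316 and 298 RPKM in GFP-hi and 276, 284 and 278 RPKM in GFP-lo libraries. The groups did not overlap, but the difference was small, 306 ± 9.03 against 279 ± 4.12 RPKM (SD, n = 3 each). Nkg7 did not pass, with a log2 fold change of 0.13 (95% interval 0.01 to 0.25, limma adjusted p = 0.21). Its spread within groups was among the smallest measured, larger than that of 4.42% of genes tested.

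Ctsw had 146, 155 and 145 RPKM in GFP-hi and 146, 141 and 141 RPKM in GFP-lo libraries, and the groups overlapped. The log2 fold change was 0.06 (95% interval -0.06 to 0.18, limma adjusted p = 0.60). For Ctsw the interval thus held no change beyond 0.18 on the log2 scale, whereas that of Gzmb began at 0.42.

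Ccl5, a chemokine that memory and effector CD8 T cells store and release, had 3.16, 4.49 and 4.56 RPKM in GFP-hi and 4.15, 6.16 and 6.94 RPKM in GFP-lo libraries. The groups overlapped through GFP-lo replicate 1, which lay below 2 of the GFP-hi libraries. The log2 fold change was -0.40 (95% interval -0.80 to -0.0038), and the limma adjusted p of 0.24 did not pass.

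Ifng encodes interferon gamma, the main macrophage-activating cytokine of CD8 T cells. It had 2.75, 5.13 and 2.87 RPKM in GFP-hi and 1.74, 5.68 and 3.11 RPKM in GFP-lo libraries. Replicate 2 was the highest library of each population, and the groups overlapped fully. These were also the libraries with the most Hspa1a and Hspa1b RNA; the part of handling in the Ifng values was not tested.

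The log2 fold change of Ifng was 0.08 (95% interval -0.64 to 0.80, limma adjusted p = 0.92). Its spread within groups exceeded that of 99.3% of genes tested. The interval gives changes compatible with these values and is not a limit of detection. Without replicate 2 of either population the log2 fold change was 0.18 (adjusted p = 0.69). Its sign turned negative when GFP-hi replicate 2 was left out (-0.15), and likewise for GFP-lo replicate 1 (-0.23).

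Klrd1 encodes CD94, the partner chain of NKG2 receptors that bind the class I molecule Qa-1. It had 62.2, 72.6 and 68.9 RPKM in GFP-hi and 62.6, 68.8 and 67.7 RPKM in GFP-lo libraries. The groups overlapped fully, with a log2 fold change of 0.03 (95% interval -0.13 to 0.19, limma adjusted p = 0.86). The sign was negative with quantile normalization (-0.01). It was also negative when GFP-hi replicate 2 (-0.02) was left out, and likewise for GFP-lo replicate 1 (-0.01).

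Klrk1 encodes NKG2D, an activating receptor for stress-induced ligands. It lies 11547 bases from Klrd1 on chromosome 6, at chr6:129610323-129623903, after Klrd1 at chr6:129588092-129598775 (GRCm38.p6). The levels of these neighbours were far apart, as Klrk1 had 0.258, 0.216 and 0.469 RPKM in GFP-hi and 0.479, 0.726 and 0.652 RPKM in GFP-lo libraries. The groups of Klrk1 did not overlap, but the highest GFP-hi and lowest GFP-lo values nearly met. Klrk1 was left out of the test by the limit of 1 RPKM. With no limit its log2 fold change was -0.30 (standard error 0.109, limma adjusted p = 0.20) and did not pass.

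**Figure D3:**
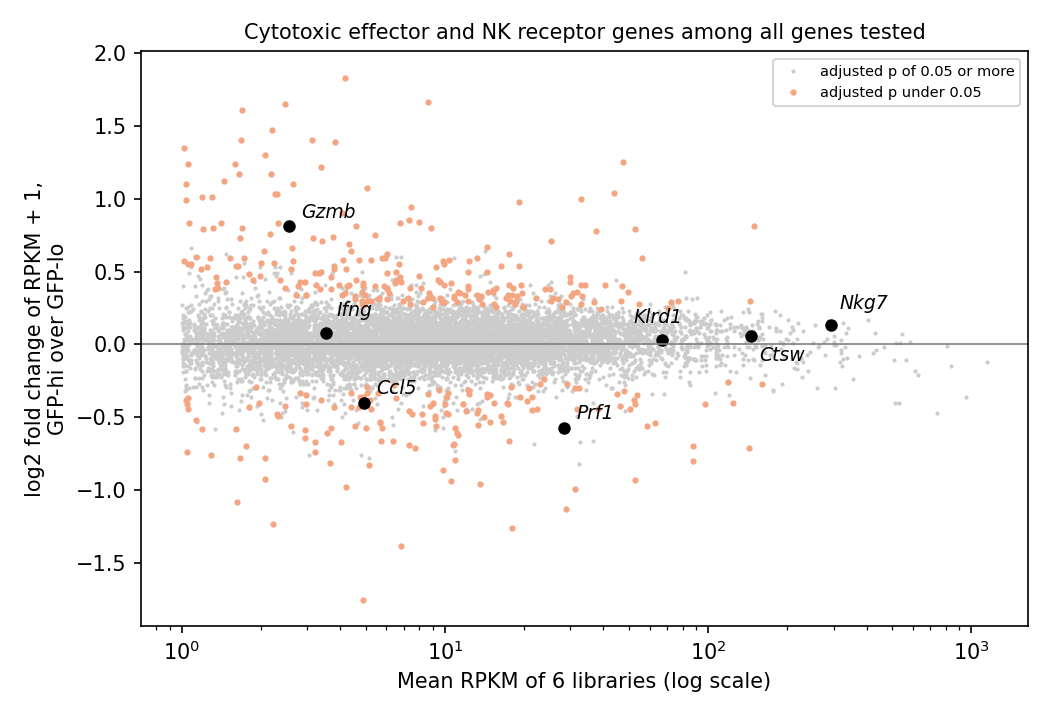
Mean RPKM of the 6 libraries (log axis) against the log2 fold change of RPKM + 1, GFP-hi over GFP-lo, for the 9351 genes tested, with orange for an adjusted p under 0.05 and black for the 7 tested members. Nkg7, Ctsw and Klrd1 lie near 0 at high levels, and Gzmb and Prf1 lie on opposite sides of 0. Genes that did not pass (grey) can lie as far from 0, as Ly6c2 does at 32.4 RPKM and -0.82.

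Other genes of granule biogenesis, release and granzyme control were compared from a list of 17. Of the 16 tested, 1 was higher, 1 lower and 14 did not pass, with a median log2 fold change of 0.04. Among all genes tested, 2.46% were higher and 1.49% lower. This list and those below were chosen with earlier results known, so their counts are not results about a list. Serpinb9, which encodes an inhibitor of granzyme B, was lower, with 2.60, 3.26 and 3.35 RPKM in GFP-hi against 4.39, 4.66 and 4.40 RPKM in GFP-lo (log2 fold change -0.43, limma adjusted p = 0.031). Lamp2, a lysosomal membrane protein gene, was higher, with 5.46, 5.52 and 5.22 against 4.39, 4.29 and 4.17 RPKM (0.28, limma adjusted p = 0.039). The groups did not overlap for either gene.

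Both calls were fragile. Serpinb9 lost its call without GFP-hi replicate 1 or 3 (limma adjusted p = 0.074 and 0.052) and without GFP-lo replicate 1, 2 or 3 (0.083, 0.12 and 0.092). Lamp2 lost it without GFP-hi replicate 1, 2 or 3 (0.13, 0.075 and 0.11) and without GFP-lo replicate 1, 2 or 3 (0.069, 0.14 and 0.14). In the 2 comparisons of 4 libraries, without replicate 2 of both populations or without the pair low in olfactory genes, adjusted p was 0.14 and 0.058 for Serpinb9 and 0.17 and 0.062 for Lamp2. Srgn, whose proteoglycan packs granules, had 46.2 ± 4.36 and 46.6 ± 3.06 RPKM (SD, n = 3 each), and its groups overlapped. Ctsc, whose protease activates pro-granzymes, had 33.6 ± 2.21 and 30.1 ± 1.75 RPKM (log2 fold change 0.15, limma adjusted p = 0.26).

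Of 12 other granzymes and killing ligands, 4 were measured and tested (Tnf, Tnfsf10, Lta and Ltb), and none passed limma; 1 of them, Ltb, was lower at an unadjusted p under 0.05. Of all genes tested, 12.9% were higher and 7.3% lower at that unadjusted threshold. The log2 fold changes of the 4 measured killing ligands ran from -0.23 to 0.11. Of 9 other effector chemokines and cytokines, Ccl4 (0.17) and Il16 (-0.06) were measured, and neither passed. Ccl4, a chemokine induced by T-cell receptor signals, had 4.42, 4.86 and 5.09 RPKM in GFP-hi and 4.17, 4.27 and 3.99 RPKM in GFP-lo libraries (limma adjusted p = 0.21), without overlap.

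Among other NK receptors and their adaptors, 7 of 31 symbols were measured and 5 tested, and 2 were higher in GFP-hi. Cd160, a receptor of NK cells and CD8 T cells that binds HVEM, had 27.8, 25.1 and 24.0 RPKM in GFP-hi and 13.9, 12.2 and 11.3 RPKM in GFP-lo libraries (log2 fold change 0.98, limma adjusted p = 0.0014). Cd7, an immunoglobulin-family surface protein of T and NK cells, had 201, 205 and 165 against 119, 105 and 100 RPKM (log2 fold change 0.81, limma adjusted p = 0.0048). The groups were well apart for both, and each call held with any 1 library left out. That of Cd7 was lost among the 4 libraries without replicate 2 (adjusted p = 0.064). Hcst, which encodes the signalling adaptor of NKG2D, had 79.5 ± 5.97 and 83.8 ± 5.60 RPKM (SD, n = 3 each, log2 fold change -0.08, limma adjusted p = 0.63).

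Of 17 transcription factors tested from a list of 23, 1 was higher and none lower, with a median log2 fold change of -0.06 (limma; 2 higher and 2 lower at an unadjusted p under 0.05). Id2, which blocks E proteins and favours effector differentiation, had 36.6, 38.4 and 33.0 RPKM in GFP-hi and 28.9, 28.9 and 25.5 RPKM in GFP-lo libraries (0.36, limma adjusted p = 0.040). The Id2 call was lost without GFP-hi replicate 1 or 2 (limma adjusted p = 0.12 and 0.081) and without GFP-lo replicate 1, 2 or 3 (0.080, 0.098 and 0.13), and in the 2 comparisons of 4 libraries (0.15 and 0.065). The T-box genes Tbx21 and Eomes and the Runx gene Runx3, which drive effector genes in activated cells, had overlapping groups. Tbx21 had 6.25 ± 2.03 and 6.80 ± 2.10 RPKM, Eomes 6.54 ± 1.41 and 6.57 ± 0.977 RPKM, and Runx3 32.6 ± 1.19 and 32.1 ± 2.36 RPKM (SD, n = 3 each).

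Of 10 cytokine receptor chains tested from a list of 11, 3 were lower and none higher, with a median log2 fold change of -0.14 (limma; 4 lower and 1 higher at an unadjusted p under 0.05). Interleukin 18 and interferon gamma act through these 3. Il18r1 had 1.19, 0.629 and 0.955 RPKM in GFP-hi and 2.66, 3.90 and 4.01 RPKM in GFP-lo libraries (log2 fold change -1.23, limma adjusted p = 0.0048). Il18rap, the second chain of that receptor, had 0.755, 0.929 and 1.19 against 1.83, 2.44 and 2.84 RPKM (-0.78, limma adjusted p = 0.017). The GFP-hi means of both were under 1 RPKM, so both were tested through their GFP-lo values. Il18r1 lost its call among the 4 libraries without replicate 2 (limma adjusted p = 0.056). Il18rap lost it there (0.14), without GFP-hi replicate 1 (0.066), and when replicate 2 (0.072) or 3 (0.055) of GFP-lo was left out.

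Ifngr1, the ligand-binding chain for interferon gamma, had 48.5, 52.1 and 52.2 RPKM in GFP-hi and 73.4, 73.1 and 77.4 RPKM in GFP-lo libraries. It fell by 0.54 on the log2 scale (limma adjusted p = 0.0024), and the call held in all 18 alternatives. RNA of this chain was thus lower in GFP-hi, while no difference was detectable in the ligand gene Ifng. The same did not hold for Ifngr2, the other chain of the receptor, which did not pass (log2 fold change 0.1, limma adjusted p = 0.67). Group means of Ifngr2 were 8.01 (GFP-hi) and 7.35 (GFP-lo) RPKM, with overlap between the libraries.

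**Figure D4:**
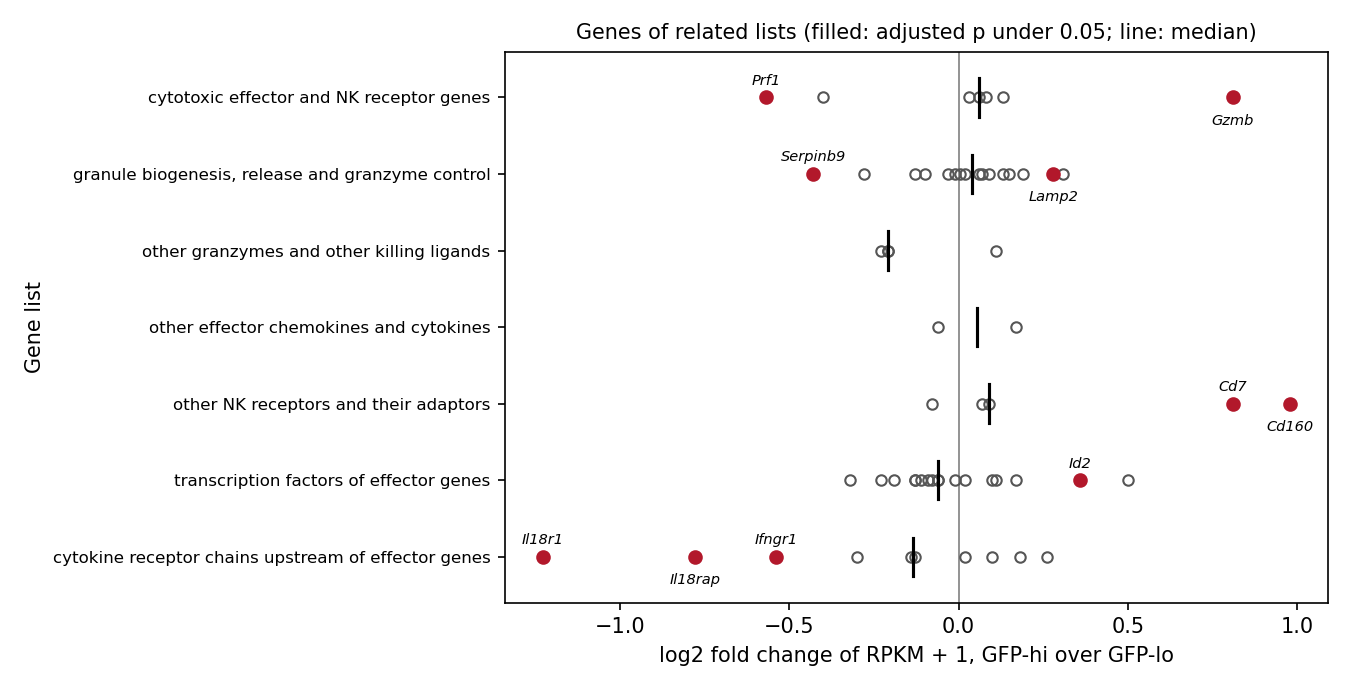
Log2 fold change of RPKM + 1, GFP-hi over GFP-lo, for each tested gene of the members and of 6 related lists, 1 row a list, with filled red points for an adjusted p under 0.05 and black lines for medians. The 3 called receptor chains lie to the left, and Cd7 and Cd160 to the right.

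The tested genes whose 6 values lay closest to those of Gzmb and Prf1 were then found. Closeness was the root mean square difference of log2(RPKM + 1) after each gene was centred on its mean. Nearest to Gzmb were Ankrd55 (0.130), Plk1 (0.150) and Ckap2l (0.151). These 3 averaged under 1 RPKM in GFP-lo (0.495, 0.621 and 0.374), so they were among the tested genes through their GFP-hi values, which in part sets this likeness. Nearest to Prf1 were Ifngr1 (0.0392), Itga6 (0.0442) and Mirt1 (0.0453). The profile of Prf1 thus had closer neighbours than that of Gzmb, whose spread within groups was larger than that of 97.0% of genes tested against 46.2% for Prf1.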

How the data were processed

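The table deposited by the authors held RPKM, per the file headers, in 1 column per sample, with no read counts. STAR and the build mm10 are named in the submitters' processing notes. The counter, annotation and gene filter are not given in the sources used here. Per the labels' protocols, RNA was made into cDNA with SMART-seq v4 and libraries with Nextera XT. Columns were matched to samples by title, and groups came from the reporter label.

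Genes with a mean of at least 1 RPKM were tested (9351, leaving out 1811) with limma 3.58.1 in R 4.3.3 on log2(RPKM + 1), eBayes with a mean-variance trend, two-sided, no covariate, Benjamini-Hochberg adjustment and a threshold of 0.05. Depth was recovered by seeking, for 800 genes with a single GENCODE transcript, the library size that makes RPKM times length whole; of the low values used, 86.0% to 88.8% came within 0.1 of whole reads (20% if spread evenly). In 5 simulations of this comparison over 9351 genes, 95.4% of 200 genes changed by 1 on the log2 scale were recovered, and 5.71% of calls were false. Noise was drawn independently for each gene and library. The simulations therefore do not cover traits shared by the genes of a library, or changes smaller than 1. Symbols of 15 genes were restored from Entrez IDs. Tables were read with Python 3.11.15, and figures drawn with matplotlib 3.10.9.

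The members and lists were chosen with earlier results of these data known. The text names all members, up to 6 genes per list with an adjusted p under 0.05, and the 3 genes nearest to each called member. Marker genes lie outside that rule, as do Srgn, Ctsc, Tnf, Tnfsf10, Lta, Ltb, Ccl4, Il16, Hcst, Tbx21, Eomes, Runx3 and Ifngr2. All were named after their values were seen. Alternatives changed the pseudocount, filter, scaling (median, quantile, or a trimmed mean of M values, with 30% trimmed by ratio and 5% by level), variance model and libraries.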

Additional observations from a re-analysis of the deposited data

How the results depend on the processing

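Of the 18 alternatives, 11 called both Gzmb and Prf1, and the other 7 called Prf1 alone. No other member was called in any. The number of called members was 1 with a pseudocount of 0.1, with a mean of at least 5 RPKM (which leaves Gzmb untested) and among the 4 libraries without replicate 2 of both populations. It ran from 1 to 2 with 1 library left out. The number of called genes was 202 with a mean of at least 5 RPKM, 1282 with array quality weights, 101 among the 4 libraries without replicate 2 of both populations, and from 133 to 315 with 1 library left out. The log2 fold change of Ifng was negative with array quality weights (-0.31), and when GFP-hi replicate 2 (-0.15), GFP-lo replicate 1 (-0.23) or both (-0.46) were left out. With 1 library left out it ran from -0.23 to 0.41. That of Klrd1 was negative with quantile normalization (-0.01) and without the same libraries singly (-0.02 and -0.01) or together (-0.06). With 1 library left out it ran from -0.02 to 0.09. The causes of these shifts were not tested. No paired analysis was made, because the labels give no replicate numbers and state no pairing. The numbers used here were assigned in accession order. Replicate 2 of each population shared high Hspa1a and Hspa1b RNA, and whether libraries of the 2 populations shared a preparation was not tested.

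Arms of 1 population held 2 libraries when 1 was left out, and the 4-library fits had 2 in each. Gzmb, a low gene, rested on 49 to 165 reads per library. Counting error is a lower limit on its spread where reads include PCR copies.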
